A study of Mus musculus with 3 samples.

Results

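The G1 cyclins, their kinases and the retinoblastoma (Rb) family were examined in RNA of 3 sorted bone marrow populations of C57BL/6 mice. The genes were chosen by name, as the D cyclins Ccnd1, Ccnd2 and Ccnd3, the kinase genes Cdk4 and Cdk6, the E cyclins Ccne1 and Ccne2, and the Rb family genes Rb1, Rbl1 and Rbl2. All 10 had a row among the 23393 genes of the table, and all 10 passed the filter on low values (a mean of 50 or more across the libraries), as 11951 genes did. The first population was GFP+ HSCs, hematopoietic stem cells of the LSK compartment (lineage-marker-free marrow cells with Sca-1 and c-Kit on their surface) gated as CD48- and CD150+ and carrying signal of the Map17-GFP reporter. The second was GFP- HSCs, from the same gate without reporter signal. The third was MPPs, multipotent progenitors of the LSK compartment gated as CD48+, CD150- and Map17-GFP-. There was 1 library per population, the sources used here do not give the age or sex of the mice or any pooling of animals, and without replicates a difference has no error to be judged by. Differences are therefore described by size only, with no test, and neighbouring levels in any order given below cannot be said to differ beyond error.

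The G1 cyclins and kinases carry a cell from growth signals to the start of DNA replication. D cyclins bind the kinases CDK4 and CDK6, which begin to phosphorylate the Rb family of pocket proteins; cyclin E with CDK2 continues this, the pocket proteins release E2F transcription factors, and the E2F factors switch on genes of S phase. Most HSCs rest outside the cycle, while MPPs divide more often, and CDK6 is known for its part in the exit of stem cells from rest. The product of Rbl2, called p130, is the pocket protein that gathers in resting cells, whereas Rbl1, which encodes p107, is itself switched on by E2F in dividing cells.

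The value of each gene was its normalized count, called its level. The levels summed to between 25311805 and 26689660 per library after the scaling by the authors, and the sequencing depth behind them is unknown. The sort genes that set the gates apart went the way of the gates. Slamf1, which encodes CD150, stood at 2219 in GFP+ HSCs, 2144 in GFP- HSCs and 17 in MPPs, and Cd48 stood at 64 in GFP+ HSCs, 168 in GFP- HSCs and 7744 in MPPs. Pdzk1ip1, the gene of Map17, stood at 5659 in GFP+ HSCs, 3673 in GFP- HSCs and 290 in MPPs, so that the GFP- fraction held its transcript too. Markers of other cell types also differed between the libraries. The summed level of 8 neutrophil genes was 2032 in GFP+ HSCs, 1294 in GFP- HSCs and 16842 in MPPs, with none at 0. Elane, which myeloid progenitors also express, stood at 425 in GFP+ HSCs, 557 in GFP- HSCs and 16125 in MPPs. The other 7 genes summed to 1607 in GFP+ HSCs, 737 in GFP- HSCs and 717 in MPPs. For 7 megakaryocyte genes, which HSCs also express in part, it was 47639 in GFP+ HSCs, 41556 in GFP- HSCs and 4740 in MPPs, with none at 0. For 8 erythroid genes it was 2986 in GFP+ HSCs, 5538 in GFP- HSCs and 5228 in MPPs, with the globin genes Hba-a1 and Hbb-b1 listed at 0 in every library. Without Tfrc, which dividing cells also express, the other 7 summed to 1406 in GFP+ HSCs, 3519 in GFP- HSCs and 2074 in MPPs. Of the 6 erythroid genes with a mean of 50 or more, 5 were higher in GFP- HSCs than in MPPs, with a median log2 ratio of 0.69, and Gata1 and Epor were more than 2-fold higher. For 6 monocyte and macrophage genes the summed level was 6903 in GFP+ HSCs, 6856 in GFP- HSCs and 14244 in MPPs. Lyz2 alone stood at 6173 in GFP+ HSCs, 5986 in GFP- HSCs and 6797 in MPPs. The 5 genes with a mean of 50 or more had a median log2 ratio of -1.85 for GFP- HSCs against MPPs. For 7 T and NK cell genes the summed level was 905 in GFP+ HSCs, 1610 in GFP- HSCs and 8305 in MPPs, with Cd3e and Cd3g listed at 0 in both HSC libraries. Nkg7 made up most of the MPP sum, at 267 in GFP+ HSCs, 928 in GFP- HSCs and 6433 in MPPs. Klrb1c ran the other way, at 266 in GFP+ HSCs, 281 in GFP- HSCs and 39 in MPPs. For 5 B cell genes the summed level was 896 in GFP+ HSCs, 765 in GFP- HSCs and 1298 in MPPs, with Ms4a1 and Pax5 listed at 0 in both HSC libraries. Their part in the results that follow was not tested.

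The 10 genes did not differ between the populations as a single block. The 3 D cyclins, Rbl2 and Rb1 were higher in both HSC libraries than in MPPs, and Cdk4, Cdk6, both E cyclins and Rbl1 were lower. Ratios were taken as log2 of (level + 5), and a gene was counted as called when this ratio was at least 2-fold. For GFP+ HSCs against MPPs, 5 of the 10 genes were called, 1 higher (Ccnd1) and 4 lower (Cdk4, Cdk6, Ccne1 and Ccne2), where 22.3% of all 11951 genes were called, 13.7% higher and 8.6% lower. For GFP- HSCs against MPPs, 1 of 10 was called, Cdk6, which was lower, where 17.1% of all genes were called, 11.6% higher and 5.53% lower. This call of Cdk6, and that of Cdk4 for GFP+ HSCs, were lost when the libraries were scaled to equal totals. Between GFP+ and GFP- HSCs, 0 of 10 were called, where 1.28% of all genes were, 0.41% higher and 0.87% lower. At a threshold of 1.5-fold, 2 of 10 were called between the HSC fractions, Cdk6 and Ccne2, both lower in GFP+ HSCs, where 5.44% of all genes were called, 2.44% higher and 3% lower. For GFP- HSCs against MPPs 6 of 10 passed 1.5-fold, Ccnd1 and Rbl2 higher and Cdk4, Cdk6, Ccne1 and Ccne2 lower, where 32.7% of all genes did, 19.3% higher and 13.4% lower. For GFP+ HSCs against MPPs Rbl1 joined the lower ones, which made 7 of 10, where 40.2% of all genes passed, 22.3% higher and 17.9% lower. The median log2 ratio of the 10 genes was -0.17 for GFP+ against GFP- HSCs, where the median of all genes was 0.01, -0.06 for GFP- HSCs against MPPs, where it was -0.01, and -0.26 for GFP+ HSCs against MPPs, where it was 0.01. The 3 comparisons share libraries, so their ratios are not independent of each other. In RNA of whole populations, fewer cells of a kind (such as fewer cells in G1 or S phase) and less RNA per cell cannot be told apart.

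**Figure D1:**
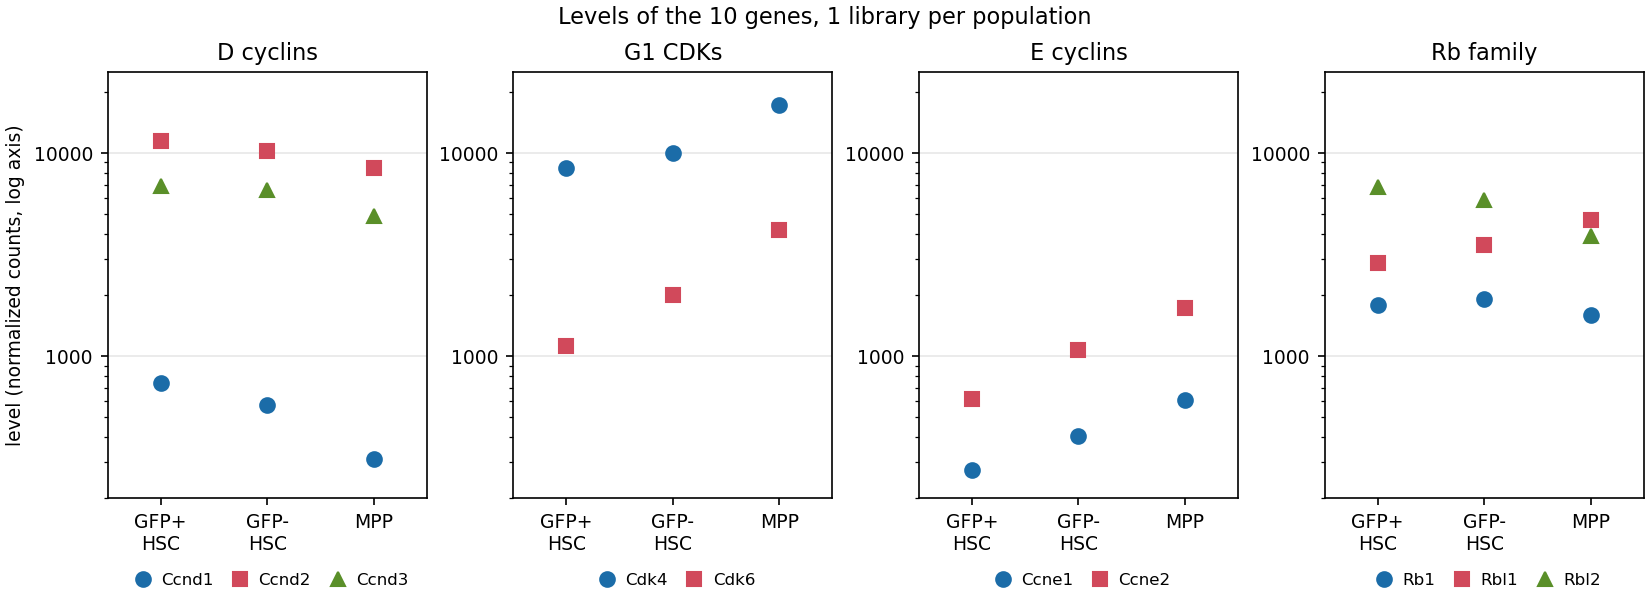
Levels (normalized counts, log axis) of the 10 genes in GFP+ HSCs, GFP- HSCs and MPPs, with 1 library per population, 1 point per library and no error bars; heights of different genes are not divided by length. The 3 D cyclins are highest in GFP+ HSCs and lowest in MPPs, while Cdk4, Cdk6, Ccne1, Ccne2 and Rbl1 are lowest in GFP+ HSCs and highest in MPPs.

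The D cyclins, which couple growth signals to the cycle, were all higher in the HSC libraries. Ccnd1 (chromosome 7, 144929931 to 144939925, minus strand, in GRCm38, the build also called mm10, as are all coordinates here) stood at 741 in GFP+ HSCs, 574 in GFP- HSCs and 311 in MPPs. Its level was highest in GFP+ HSCs, 1.29-fold above GFP- HSCs and 2.38-fold above MPPs, and GFP- HSCs were 1.85-fold above MPPs. Of all genes, 7.64% had a ratio of GFP+ to GFP- HSCs at least as high as that of Ccnd1, and 10.7% a ratio of GFP+ HSCs to MPPs at least as high. Ccnd2 (chromosome 6, 127125162 to 127152193, minus strand) stood at 11512 in GFP+ HSCs, 10218 in GFP- HSCs and 8406 in MPPs. It was 1.13-fold higher in GFP+ than in GFP- HSCs and in GFP+ HSCs 1.37-fold above MPPs. Ccnd3 (chromosome 17, 47505051 to 47599691, plus strand) stood at 6893 in GFP+ HSCs, 6562 in GFP- HSCs and 4892 in MPPs. The 2 HSC levels of Ccnd3 were close, 1.05-fold apart, and GFP+ HSCs were 1.41-fold above MPPs. For Ccnd2 and Ccnd3, 22% and 38.3% of all genes had a ratio of GFP+ to GFP- HSCs at least as high. For GFP+ HSCs against MPPs these shares were 26.8% for Ccnd2 and 25.3% for Ccnd3. For GFP- HSCs against MPPs they were 30.7% and 24.3%, so ratios of this size were common among all genes.

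Set side by side per kilobase of the longest coding transcript, Ccnd3 was the most abundant D cyclin and Ccnd1 by far the least. Ccnd3 made up 61.8% of the summed D cyclin level per kilobase in GFP+ HSCs, 63.7% in GFP- HSCs and 62.1% in MPPs. Ccnd2 made up 34.5% in GFP+ HSCs, 33.1% in GFP- HSCs and 35.6% in MPPs. Ccnd1 made up 3.75% in GFP+ HSCs, 3.15% in GFP- HSCs and 2.23% in MPPs. The gene with the greatest fold between populations was therefore a small part of the family, and the split between Ccnd2 and Ccnd3 was close to the same in all 3 libraries. The order of Ccnd2 and Ccnd3 rests on the length used. With the median coding transcript of each gene in its place Ccnd2 made up 59.3% in GFP+ HSCs, 57.7% in GFP- HSCs and 60.2% in MPPs. Needing no length, the level of Ccnd1 relative to that of Ccnd2 was in GFP+ HSCs 1.74-fold above MPPs, and relative to that of Ccnd3 it was 1.69-fold above.

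**Figure D2:**
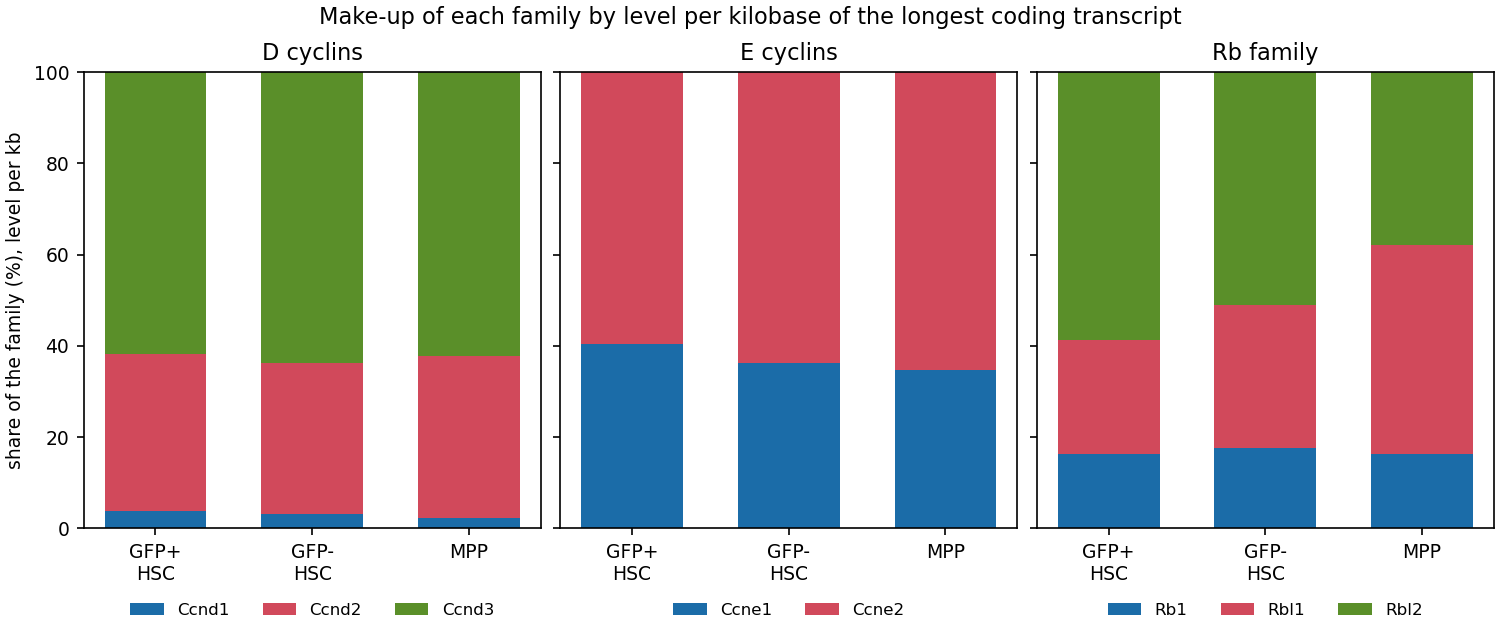
Share (%) of each gene in the summed level per kilobase of its family, with the longest coding transcript as length, in GFP+ HSCs, GFP- HSCs and MPPs (1 library each, no error bars). The D cyclin make-up is nearly level over the libraries, while Rbl2 takes 58.7% of the Rb family in GFP+ HSCs, 51.1% in GFP- HSCs and 37.8% in MPPs.

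The partner kinases of the D cyclins were lower in the HSC libraries, the opposite of the cyclins. Cdk4 (chromosome 10, 127063534 to 127067920, plus strand) stood at 8481 in GFP+ HSCs, 10027 in GFP- HSCs and 17299 in MPPs. It was 1.18-fold lower in GFP+ than in GFP- HSCs, and against MPPs it was 2.04-fold lower in GFP+ HSCs and 1.73-fold lower in GFP- HSCs. Cdk6 (chromosome 5, 3341485 to 3531008, plus strand) stood at 1127 in GFP+ HSCs, 1993 in GFP- HSCs and 4197 in MPPs. Its 3 levels were spread the widest of the 10 genes, with GFP+ HSCs 1.77-fold below GFP- HSCs and 3.72-fold below MPPs, and GFP- HSCs 2.11-fold below MPPs. Of all genes, 1.39% had a ratio of GFP+ to GFP- HSCs at least as low as that of Cdk6, and 13.7% one at least as low as that of Cdk4. For GFP+ HSCs against MPPs these shares were 2.87% for Cdk6 and 8.21% for Cdk4. Needing no length, the level of Cdk6 relative to that of Cdk4 in GFP+ HSCs was 0.669 times that in GFP- HSCs and 0.548 times that in MPPs. Per kilobase of the longest coding transcript Cdk4 was above Cdk6 by 42.2-fold in GFP+ HSCs, 28.2-fold in GFP- HSCs and 23.1-fold in MPPs. That gap is set largely by an annotated Cdk6 transcript of 11525 bases, against 2053 bases for Cdk4. With median coding transcripts Cdk6 over Cdk4 was 0.203 in GFP+ HSCs, 0.304 in GFP- HSCs and 0.371 in MPPs.

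The D cyclins and the kinases, which form a complex together, thus differed in opposite directions. The summed D cyclins stood at 5279 per kilobase in GFP+ HSCs, 4873 in GFP- HSCs and 3726 in MPPs, and Cdk4 and Cdk6 together at 4229 in GFP+ HSCs, 5057 in GFP- HSCs and 8790 in MPPs. D cyclin over kinase was 1.25 in GFP+ HSCs, 0.964 in GFP- HSCs and 0.424 in MPPs. With median coding transcripts the same ratio was 2.04 in GFP+ HSCs, 1.45 in GFP- HSCs and 0.631 in MPPs, again highest in GFP+ HSCs and lowest in MPPs. Needing no length, Ccnd2 relative to Cdk4 was in GFP+ HSCs 2.79-fold above MPPs, and relative to Cdk6 it was 5.10-fold above. These are transcript levels, and the proteins and their complexes were not measured.

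Promoter windows of the kinase genes are shown because both were lower in the HSC libraries and both windows hold an E-box, the letters CACGTG that basic helix-loop-helix factors can bind. The windows are the 250 bases before the RefSeq start (GRCm38.p6), at chr10:127063285-127063534 and chr5:3343643-3343892, both on the plus strand, written 5′ to 3′ with each CACGTG in capitals.
Cdk4: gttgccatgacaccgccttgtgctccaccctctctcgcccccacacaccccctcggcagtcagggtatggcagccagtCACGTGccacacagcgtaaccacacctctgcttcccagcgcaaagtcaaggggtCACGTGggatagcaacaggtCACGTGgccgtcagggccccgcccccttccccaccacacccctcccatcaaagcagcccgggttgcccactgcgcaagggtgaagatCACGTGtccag
Cdk6: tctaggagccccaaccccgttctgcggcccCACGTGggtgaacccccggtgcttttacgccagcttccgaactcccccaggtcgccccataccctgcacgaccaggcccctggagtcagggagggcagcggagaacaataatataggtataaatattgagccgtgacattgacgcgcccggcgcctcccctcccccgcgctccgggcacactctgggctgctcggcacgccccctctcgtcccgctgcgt
The Cdk4 window held 4 such matches, at 172, 118, 98 and 11 bases before the start, and the Cdk6 window 1, at 220 bases before it. Of 32851 windows of the same length over all genes, 6.02% held at least 1 CACGTG, which reads the same on both strands. Of the 6 genes with a window at hand, only Cdk4 and Cdk6 held CACGTG. Ccne1 and Rbl1 were also lower in the HSC libraries, and their windows did not hold it. Other motifs were searched in the same windows. The GC box (GGGCGG, on either strand) was found for 4 of the 6 genes, Ccnd3, Ccne1, Cdk4 and Rbl1. Of all windows, 32.7% held it. The CCAAT box was found for 1 gene, Ccnd3, where 33.8% of all windows held it. The remaining motifs are given below. A match describes the letters only and is not a measured site.

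The E cyclins, which act with CDK2 at the entry to S phase, were both lower in the HSC libraries. Ccne1 (chromosome 7, 38097984 to 38107534, minus strand) stood at 276 in GFP+ HSCs, 404 in GFP- HSCs and 612 in MPPs. It was 1.46-fold lower in GFP+ than in GFP- HSCs, and against MPPs 2.22-fold lower in GFP+ HSCs. Ccne2 (chromosome 4, 11191351 to 11204779, plus strand) stood at 613 in GFP+ HSCs, 1070 in GFP- HSCs and 1724 in MPPs. It was 1.75-fold lower in GFP+ than in GFP- HSCs, and against MPPs 2.81-fold lower in GFP+ HSCs. Both genes were lowest in GFP+ HSCs. Between the HSC fractions, 3.66% of all genes had a ratio at least as low as that of Ccne1 and 1.46% one at least as low as that of Ccne2. For GFP- HSCs against MPPs these shares were 13.1% and 10.4%. Per kilobase Ccne2 made up 59.6% of the E cyclins in GFP+ HSCs, 63.8% in GFP- HSCs and 65.2% in MPPs. With median coding transcripts its share was 49.1% in GFP+ HSCs, 53.5% in GFP- HSCs and 55.0% in MPPs, so which E cyclin led in GFP+ HSCs rests on the length used. The summed E cyclins were 341.9 per kilobase in GFP+ HSCs, 558 in GFP- HSCs and 879.5 in MPPs.

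**Figure D3:**
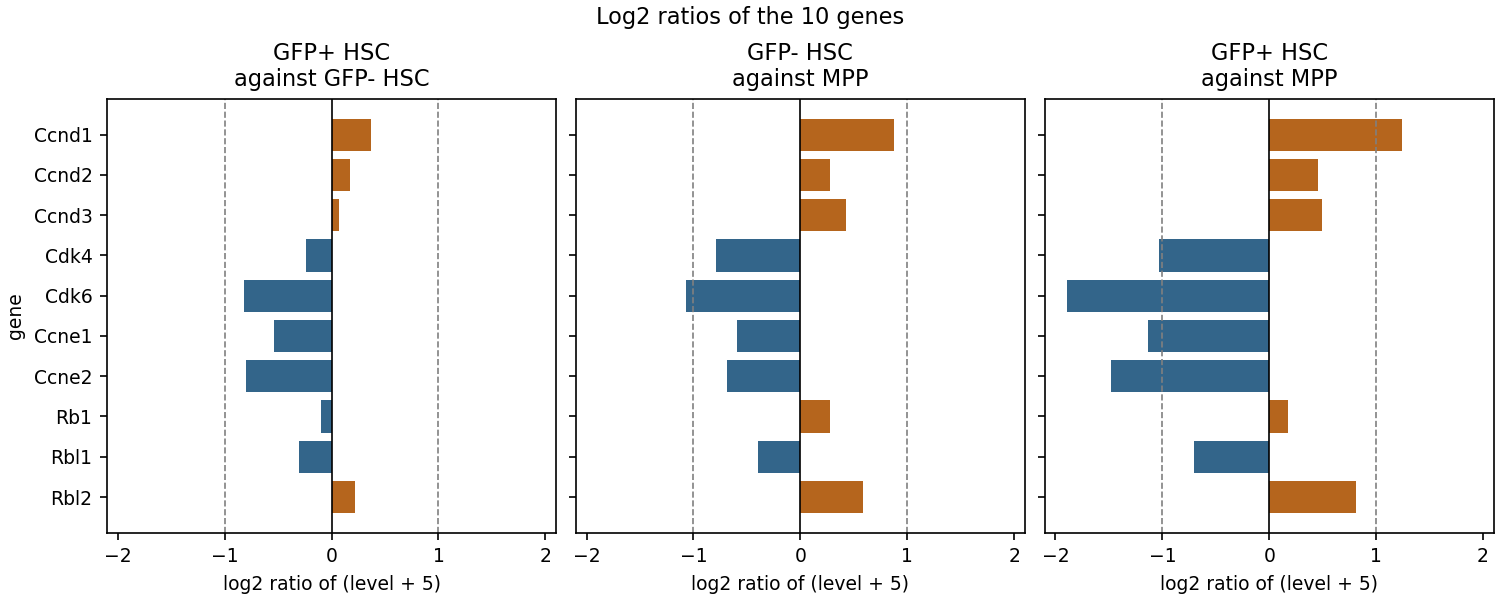
Log2 ratios of (level + 5) of the 10 genes for GFP+ HSCs against GFP- HSCs, GFP- HSCs against MPPs and GFP+ HSCs against MPPs, 1 library per population, with dashed lines at 2-fold. No bar reaches 2-fold between the HSC fractions; for GFP+ HSCs against MPPs Ccnd1 passes it upwards and Cdk4, Cdk6, Ccne1 and Ccne2 downwards.

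Within the Rb family, Rbl2 and Rbl1 ran in opposite directions, and Rb1 had the smallest spread of the 3. Rbl2 (chromosome 8, 91070057 to 91123844, plus strand) stood at 6836 in GFP+ HSCs, 5877 in GFP- HSCs and 3905 in MPPs. It was 1.16-fold higher in GFP+ than in GFP- HSCs, and against MPPs it was 1.75-fold higher in GFP+ HSCs, a log2 ratio of 0.81, and higher in GFP- HSCs by a log2 ratio of 0.59. Rbl1 (chromosome 2, 157145893 to 157204534, minus strand) stood at 2869 in GFP+ HSCs, 3540 in GFP- HSCs and 4675 in MPPs. It was 1.23-fold lower in GFP+ than in GFP- HSCs, and against MPPs 1.63-fold lower in GFP+ HSCs. Rb1, the founding pocket protein gene (chromosome 14, 73183673 to 73325822, minus strand), stood at 1796 in GFP+ HSCs, 1920 in GFP- HSCs and 1588 in MPPs. Its highest level was in GFP- HSCs, and its log2 ratio was -0.10 for GFP+ against GFP- HSCs. Against MPPs its log2 ratio was 0.18 for GFP+ HSCs and 0.27 for GFP- HSCs. None of the 3 genes passed 2-fold in any comparison. For GFP- HSCs against MPPs, 19.2% of all genes had a ratio at least as high as that of Rbl2. The share at least as high as Rb1 was 31.2%, and that at least as low as Rbl1 was 21.3%. For GFP+ HSCs against MPPs these shares were 17.1% for Rbl2, 39.8% for Rb1 and 14.2% for Rbl1.

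The make-up of the Rb family differed more between the libraries than its sum. Per kilobase the 3 genes summed to 2364 in GFP+ HSCs, 2334 in GFP- HSCs and 2096 in MPPs. Rbl2 made up 58.7% of this sum in GFP+ HSCs, 51.1% in GFP- HSCs and 37.8% in MPPs. Rbl1 made up 25.0% in GFP+ HSCs, 31.2% in GFP- HSCs and 45.9% in MPPs. Rb1 made up 16.3% in GFP+ HSCs, 17.7% in GFP- HSCs and 16.3% in MPPs. The most abundant pocket protein transcript was thus Rbl2 in both HSC libraries and Rbl1 in MPPs. Rbl2 over Rbl1 per kilobase was 2.35 in GFP+ HSCs, 1.64 in GFP- HSCs and 0.825 in MPPs. In GFP+ HSCs the ratio was 1.44-fold above GFP- HSCs and 2.85-fold above MPPs, where the folds, from levels alone, need no length. The longest coding transcripts of Rbl1 and Rbl2, at 4862 and 4925 bases, are nearly alike.

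The promoter windows of this pair are shown because the paralogues differed in opposite directions. They were read from RefSeq as above, at chr2:157204535-157204784 on the minus strand and chr8:91069807-91070056 on the plus strand. In capitals are matches, on either strand, to an E2F site (TTTGGCGC, TTTCCCGC, TTTCGCGC or TTTGCCGC) or to the cell cycle homology region (CHR, TTTGAA), which the MuvB complex binds.
Rbl1: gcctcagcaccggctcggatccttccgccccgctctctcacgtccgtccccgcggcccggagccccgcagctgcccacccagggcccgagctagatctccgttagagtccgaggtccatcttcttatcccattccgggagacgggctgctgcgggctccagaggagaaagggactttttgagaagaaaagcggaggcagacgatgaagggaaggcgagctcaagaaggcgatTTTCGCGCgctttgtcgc
Rbl2: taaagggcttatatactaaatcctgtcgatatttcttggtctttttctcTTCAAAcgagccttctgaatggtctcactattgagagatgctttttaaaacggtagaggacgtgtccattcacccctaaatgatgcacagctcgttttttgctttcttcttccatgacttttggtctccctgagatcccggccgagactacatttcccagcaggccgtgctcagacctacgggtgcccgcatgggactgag
The Rbl1 window held TTTCGCGC at 18 bases before the start, and the Rbl2 window held TTCAAA, the CHR letters on the other strand, at 201 bases before it. Of all 32851 windows, 1.86% held one of the E2F forms and 16% the CHR letters. Windows were at hand for 6 of the 10 genes, with 2 for Ccnd3, and not for Ccnd1, Ccnd2, Ccne2 and Rb1. Rbl1 was the only one of the 6 with an E2F form and Rbl2 the only one with the CHR letters, which for the others says only that these letters are not in the window.

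Several of the 10 genes share exon bases with a neighbour on the opposite strand, and the library chemistry does not mark strand. Cdk4 shares 641 of its 3249 annotated exon bases with Tspan31, which stood at 2569 in GFP+ HSCs, 2568 in GFP- HSCs and 2989 in MPPs. Ccne2 shares 609 of 3495 with Ints8, at 2128 in GFP+ HSCs, 2679 in GFP- HSCs and 3234 in MPPs. Ccnd1 shares 1100 of 4709 with Oraov1, at 651 in GFP+ HSCs, 584 in GFP- HSCs and 465 in MPPs. These 3 neighbours ran in the same direction as the gene they overlap for HSCs against MPPs, by smaller ratios: for GFP- HSCs against MPPs the log2 ratio was -0.22 for Tspan31 and -0.79 for Cdk4, -0.27 for Ints8 and -0.69 for Ccne2, and 0.33 for Oraov1 and 0.87 for Ccnd1. Rbl2 shares 693 of 7558 exon bases with Aktip, at 1342 in GFP+ HSCs, 1066 in GFP- HSCs and 761 in MPPs, and 892 with Gm45464, whose level was not analysed here. Rb1 shares 488 of 6015 with Rcbtb2, at 3628 in GFP+ HSCs, 3133 in GFP- HSCs and 2538 in MPPs, and 408 with Lpar6, at 2487 in GFP+ HSCs, 2124 in GFP- HSCs and 1923 in MPPs. For GFP- HSCs against MPPs the log2 ratio was 0.30 for Rcbtb2, 0.14 for Lpar6 and 0.27 for Rb1. It was 0.48 for Aktip and 0.59 for Rbl2. For GFP+ against GFP- HSCs it was 0.33 for Aktip and 0.22 for Rbl2. There Rcbtb2, 0.21, and Lpar6, 0.23, lay above 0 and Rb1, -0.10, below it. The neighbours of these genes thus did not always have the smaller ratio. Ccnd3 shares 361 of 8775 with Bysl, at 1491 in GFP+ HSCs, 1812 in GFP- HSCs and 1742 in MPPs. Ccnd2 shares 368 of 9409 with the antisense gene 9330179D12Rik, which stood no higher than 117 in any library. Its log2 ratio for GFP- HSCs against MPPs was 1.06, where that of Ccnd2 was 0.28. Ccnd2 also shares 372 exon bases with Gm43126, and Cdk6 shares 368 of 13989 with Gm17590. Both are antisense genes whose levels were not analysed here. The part of shared reads in the levels was not tested.

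Around the 10 genes, the genes of the inhibitors that restrain the kinases lay on both sides. Of 7 CDK inhibitor genes 5 passed the filter, and for GFP- HSCs against MPPs 1 was called higher and 0 lower (all genes 11.6% and 5.53%), with a median log2 ratio of -0.20 (all genes -0.01). The called gene was Cdkn1c, which encodes p57 and is known for holding HSCs at rest, at 2792 in GFP+ HSCs, 1951 in GFP- HSCs and 181 in MPPs. Cdkn2d, an inhibitor of CDK4 and CDK6, stood at 2185 in GFP+ HSCs, 2289 in GFP- HSCs and 1283 in MPPs. Another inhibitor of these kinases, Cdkn2c, ran the other way, at 250 in GFP+ HSCs, 506 in GFP- HSCs and 899 in MPPs, and was the 1 gene of the list called between the HSC fractions, 2.02-fold lower in GFP+ HSCs (all genes called lower 0.87%). Cdkn1b, which encodes p27, stood at 173 in GFP+ HSCs, 242 in GFP- HSCs and 311 in MPPs. Cdkn2a and Cdkn2b were at or under 3 in every library.

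The genes of the next kinase complex and its activators lay below 0 in all 7 of the 9 that passed the filter for GFP- HSCs against MPPs, with a median of -0.35. Of these 0 were called higher and 2 lower (all genes 11.6% and 5.53%). Those called were Ccna2, the S phase cyclin, at 2849 in GFP+ HSCs, 4725 in GFP- HSCs and 10177 in MPPs, and Cks1b, a subunit of CDK complexes, at 901 in GFP+ HSCs, 1466 in GFP- HSCs and 3845 in MPPs. The subunits of the CDK-activating kinase were near level, with Cdk7 at 2060 in GFP+ HSCs, 1823 in GFP- HSCs and 1951 in MPPs, and Ccnh at 2921 in GFP+ HSCs, 3057 in GFP- HSCs and 3262 in MPPs. Of the list, 0 of 7 were called between the HSC fractions (all genes 1.28%).

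Among E2F and DP factors, the partners of the pocket proteins, 0 of 10 were called for GFP- HSCs against MPPs (all genes 17.1%) and 0 between the HSC fractions (all genes 1.28%), with medians of -0.28 and -0.23. For GFP+ HSCs against MPPs, 3 of 10 were called lower and 0 higher (all genes 8.6% and 13.7%). E2f8, an atypical repressor of the family, stood at 726 in GFP+ HSCs, 1456 in GFP- HSCs and 2781 in MPPs, and E2f2, an activator, at 311 in GFP+ HSCs, 528 in GFP- HSCs and 929 in MPPs. E2f5, a partner of p130, stood at 800 in GFP+ HSCs, 736 in GFP- HSCs and 429 in MPPs, and the dimer partner gene Tfdp2 at 4996 in GFP+ HSCs, 4671 in GFP- HSCs and 3575 in MPPs. The factors thus included genes on both sides, as the pocket proteins did.

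Of 6 genes of the MuvB core and its partners, which join p130 or p107 and E2F in the DREAM repressor complex, 1 was called lower for GFP- HSCs against MPPs and 0 higher (all genes 5.53% and 11.6%), with a median of -0.45. This was Mybl2, which takes the place of the pocket protein on MuvB in dividing cells, at 350 in GFP+ HSCs, 686 in GFP- HSCs and 1501 in MPPs. Lin52, the MuvB subunit that contacts the pocket protein, was the 1 gene of the list higher in GFP- HSCs than in MPPs, at 499 in GFP+ HSCs, 588 in GFP- HSCs and 472 in MPPs. Lin9 stood at 922 in GFP+ HSCs, 1039 in GFP- HSCs and 1485 in MPPs, and Lin37 at 723 in GFP+ HSCs, 813 in GFP- HSCs and 938 in MPPs. Of genes that turn over G1 cyclins and p27, 0 of 13 were called in any of the 3 comparisons (all genes 1.28% to 22.3%), with medians of -0.07, -0.07 and -0.12 for GFP+ against GFP- HSCs, GFP- HSCs against MPPs and GFP+ HSCs against MPPs. The outer genes of this list for GFP- HSCs against MPPs were Fbxo4, a ubiquitin ligase subunit, at 659 in GFP+ HSCs, 661 in GFP- HSCs and 445 in MPPs, the deubiquitinase gene Usp2, at 149 in GFP+ HSCs, 241 in GFP- HSCs and 207 in MPPs, Fzr1, an activator of the anaphase-promoting complex, at 2760 in GFP+ HSCs, 3028 in GFP- HSCs and 4259 in MPPs, and Rbx1, the RING subunit of cullin ligases, at 1666 in GFP+ HSCs, 1906 in GFP- HSCs and 2454 in MPPs.

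Downstream, genes of S phase that E2F switches on and genes of mitosis were lower in the HSC libraries, as Cdk4, Cdk6 and the E cyclins were. Of 23 E2F target genes, all 23 had a ratio below 0 for GFP- HSCs against MPPs, with 3 called lower (all genes 5.53%) and a median of -0.72. For GFP+ against GFP- HSCs all 23 were below 0 too, with 0 called (all genes 1.28%) and a median of -0.52. Rrm2, a subunit of ribonucleotide reductase, stood at 1699 in GFP+ HSCs, 2459 in GFP- HSCs and 5653 in MPPs, and Gins1, of the replicative helicase, at 279 in GFP+ HSCs, 462 in GFP- HSCs and 1011 in MPPs. At the other end of the list Slbp, which encodes the binding protein of histone messenger RNAs, stood at 3321 in GFP+ HSCs, 4286 in GFP- HSCs and 5467 in MPPs, and Chaf1b, of the chromatin assembly factor, at 3120 in GFP+ HSCs, 3675 in GFP- HSCs and 3685 in MPPs. Of 12 mitosis genes, 11 were called lower for GFP- HSCs against MPPs (all genes 5.53%), with a median of -1.34, and 0 between the HSC fractions (all genes 1.28%), with a median of -0.68. Bub1, a checkpoint kinase gene, stood at 894 in GFP+ HSCs, 1487 in GFP- HSCs and 4041 in MPPs, Aurkb at 1212 in GFP+ HSCs, 1994 in GFP- HSCs and 5265 in MPPs, Cdk1 at 1135 in GFP+ HSCs, 1994 in GFP- HSCs and 4673 in MPPs and Mki67 at 3990 in GFP+ HSCs, 6410 in GFP- HSCs and 10712 in MPPs. For GFP+ against GFP- HSCs the ratios of Cdk6, -0.82, and Ccne2, -0.80, lay below the medians of both lists, -0.52 and -0.68. The lowest ratios within the lists were -0.92 for the E2F target Cdc6 and -0.81 for the mitosis gene Cdk1. That of Ccne1, -0.54, was close to the median of the E2F targets, while that of Cdk4, -0.24, was nearer 0. For GFP- HSCs against MPPs the ratio of Cdk4, -0.79, was close to the median of the E2F targets, as were those of Ccne1, -0.59, and Ccne2, -0.69, and that of Cdk6, -1.07, lay between the medians of the 2 lists. The share of cycling cells in each library was not measured, and its part in the levels of the 10 genes was not tested.

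**Figure D4:**
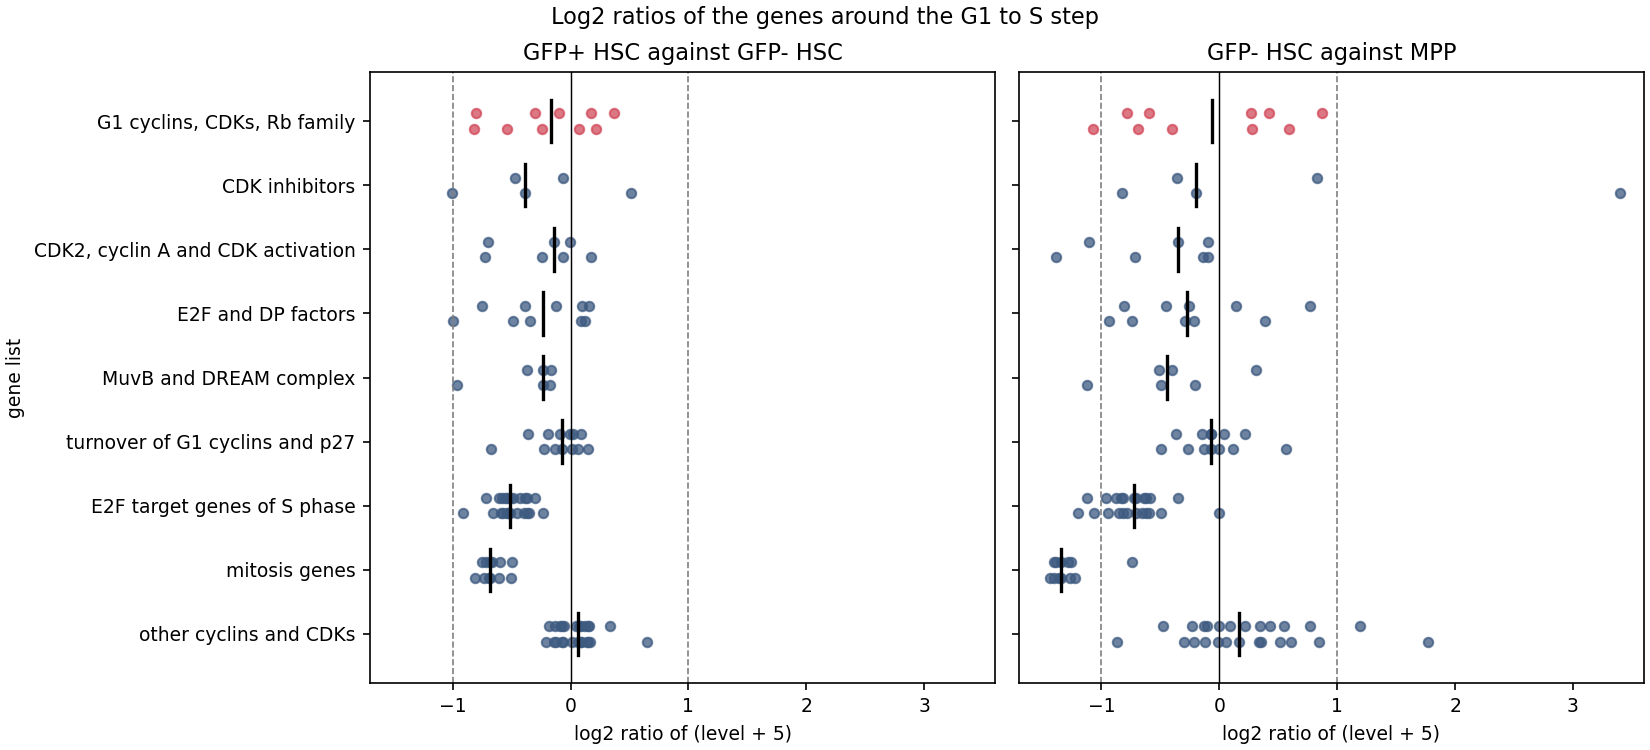
Log2 ratios of (level + 5) for GFP+ HSCs against GFP- HSCs (left) and GFP- HSCs against MPPs (right), 1 point per gene past the filter, with a black bar at the median of each list and dashed lines at 2-fold. The 10 G1 genes lie on both sides of 0, while all 23 E2F target genes and all 12 mitosis genes lie below 0 in both panels.

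The genes whose ratios were nearest to those of the outermost 2 of the 10 genes were found by Euclidean distance in the log2 ratios of GFP+ against GFP- HSCs and of GFP- HSCs against MPPs, that is over 3 libraries, among the 8647 other genes whose mean level reached 500. Nearest to Ccnd1, which had the highest ratio of GFP+ HSCs to MPPs, were Eepd1 (2048 in GFP+ HSCs, 1591 in GFP- HSCs and 868 in MPPs, distance 0.0040), Ccm2l (distance 0.021) and Snx33 (distance 0.021). Nearest to Cdk6, which had the lowest, were the replication gene Mcm10 (747 in GFP+ HSCs, 1338 in GFP- HSCs and 2899 in MPPs, distance 0.044), the nuclear lamina gene Lmnb1 (2215 in GFP+ HSCs, 4062 in GFP- HSCs and 8611 in MPPs, distance 0.055) and the centriole gene Stil (746 in GFP+ HSCs, 1338 in GFP- HSCs and 2701 in MPPs, distance 0.065). With 3 libraries the distances are a description only.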

How the data were processed

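RNA of 3 sorted populations was measured, 1 library each. Per the labels' protocols, TRIzol and PicoPure extraction was followed by SMART-seq v4 cDNA synthesis, which copies full-length transcripts by PCR without marking strand or single molecules. Per the submitters' processing notes the tools included STAR and DESeq2, on mm10; how reads were counted, and reads with several matches treated, is not given. The authors deposited normalized counts per gene as whole numbers, handled here as a score because reads could not be recovered; depth is unknown and no counting interval was made. Column names gave the populations. Of 23420 rows, 27 named by a date were left out (0.212% of the summed levels).

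Ratios were log2 of (level + 5), which understates differences of low genes; folds of single genes are ratios of levels. Without replicates there was no test, only a 2-fold rule. Levels per kilobase used protein-coding transcripts of GENCODE M21 (GRCm38). All 10 genes were named; of each pathway list, the 2 highest and 2 lowest for GFP- HSCs against MPPs and those 2-fold apart between the HSC fractions; other list members were chosen after their values were seen. The genes and lists were chosen with earlier results of these data known. Pseudocount, filter, scaling, threshold and transcript length were varied, and D cyclin over kinase was added after the data were seen. The calculation was tested on simulated data. Python 3.11.15, numpy 2.4.6, pandas 2.3.3, statsmodels 0.14.6 and matplotlib 3.10.9 were used.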

Additional observations from a re-analysis of the deposited data

How the results depend on the processing

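Alternative pseudocounts were 1 and 20, and alternative filters were minimum means of 10 and 200 and none. The scalings were equal totals, equal upper quartiles and removal by lowess of the trend on mean level. The ratios of the 10 genes changed sign in 0 of 150 cases with another pseudocount or scaling. Another pseudocount cannot change the sign of a ratio, so only the cases with another scaling could have done so. The largest shift was 0.19 on the log2 scale. A filter cannot move the ratio of a gene that passes it, and all 10 passed each. The calls nearest 2-fold were lost: Cdk6 for GFP- HSCs against MPPs at equal totals (log2 -0.9998) and equal upper quartiles (-0.99), which leaves 0 of the 10 genes in place of 1, and Cdk4 for GFP+ HSCs against MPPs at equal totals (-0.95), equal upper quartiles (-0.96) and with the trend on mean level removed (-0.84). With a 1.5-fold threshold 2 of 10 were called for GFP+ against GFP- HSCs (0 at 2-fold) and 6 for GFP- HSCs against MPPs (1 at 2-fold). With a 4-fold threshold 0 were called for GFP- HSCs against MPPs, as well as 0 (5 at 2-fold) when GFP+ HSCs were set against MPPs. Of all genes, 153 were called for GFP+ against GFP- HSCs, and 85 with a pseudocount of 20, 358 and 66 with minimum means of 10 and 200, 715 with no filter, and 650 and 11 at 1.5-fold and 4-fold. The split of those called, 49 higher and 104 lower, was 356 and 359 with no filter, 164 and 194 at a minimum mean of 10, 9 and 57 at one of 200 and 32 and 112 with the trend removed. For GFP- HSCs against MPPs the 2045 called became 1303 with a minimum mean of 200, 3492 with no filter, and 3911 and 841 at 1.5-fold and 4-fold. For GFP+ HSCs against MPPs the 2664 became 4223 with no filter and 4804 and 1009 at 1.5-fold and 4-fold.

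Shares within a family depended on length. Ccnd2 made up 59.3% in GFP+ HSCs, 57.7% in GFP- HSCs and 60.2% in MPPs of the D cyclins with median coding transcripts and 60.1% in GFP+ HSCs, 58.9% in GFP- HSCs and 61.8% in MPPs with no division. Ccne2 made up 49.1% in GFP+ HSCs, 53.5% in GFP- HSCs and 55.0% in MPPs of the E cyclins with median transcripts and 69.0% in GFP+ HSCs, 72.6% in GFP- HSCs and 73.8% in MPPs with no division. Cdk6 over Cdk4 was 0.203 in GFP+ HSCs, 0.304 in GFP- HSCs and 0.371 in MPPs with median transcripts and 0.133 in GFP+ HSCs, 0.199 in GFP- HSCs and 0.243 in MPPs with no division, against 0.0237 in GFP+ HSCs, 0.0354 in GFP- HSCs and 0.0432 in MPPs with the longest. The share of Rbl2 changed by less than a 10% relative difference. No paired analysis was possible because there was 1 library per population. With the depth unknown and no repeated sort, no level has an error, and a difference such as 1.05-fold for Ccnd3 cannot be told from none.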

Other observations

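Cyclins and CDKs outside the G1 step, many of which act in transcription, had ratios on both sides of 0. The list of 25 also includes Ccndbp1, which encodes a cyclin D binding protein and is neither a cyclin nor a CDK. Of the 25 genes, all past the filter, 15 were higher and 10 lower in GFP+ than in GFP- HSCs, with 0 called (all genes 1.28%) and a median log2 ratio of 0.06. For GFP- HSCs against MPPs 2 were called higher and 0 lower, with a median of 0.17, where 11.6% of all genes were called higher and 5.53% lower. Cdk18 stood at 2629 in GFP+ HSCs, 2086 in GFP- HSCs and 608 in MPPs, and Cdk14, which pairs with cyclin Y, at 1391 in GFP+ HSCs, 883 in GFP- HSCs and 384 in MPPs. Both were thus highest in GFP+ HSCs, the reverse of Cdk4 and Cdk6. The Mediator kinase genes lay at the other end of the list, with Cdk19 at 3961 in GFP+ HSCs, 3715 in GFP- HSCs and 6761 in MPPs and Cdk8 at 336 in GFP+ HSCs, 302 in GFP- HSCs and 422 in MPPs.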
